A study of Mus musculus with 2 samples.

Results

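Gata2 and Gata3 are 2 of the 32285 genes in the count tables. They were taken by symbol and described over every kept cell of both libraries, in frontonasal-like and mandibular-like mesenchyme and in inhibitory-like neurons above all. Both were selected on their measured UMI levels in these libraries, so their levels and differences are given as a description, with no test. GATA2 and GATA3 are zinc-finger transcription factors that bind the letters GATA in DNA and often share target genes. In the embryonic midbrain they act with the basic helix-loop-helix factors TAL1 and TAL2 to turn newborn neurons into GABAergic, inhibitory cells, with GATA2 acting as the cells leave the cycle. In the face, Gata3 is known from the nasal region and from the distal lower jaw, where it responds to BMP signals together with Hand1. GATA2 and GATA3 also serve serotonergic neurons of the hindbrain.

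The cells, CNCCs (cranial neural crest cells), came from heads of E11.5 mouse embryos and were sorted on membrane GFP that Wnt1:CRE switches on from the r26 mTmG reporter. The control library carried 1 floxed and 1 wild-type copy of each gene (Tfap2a wt/flox, Tfap2b wt/flox), and the mutant library was Tfap2a flox/flox, Tfap2b flox/flox. Both carried r26 mTmG/mTmG and Wnt1CRE, so the controls were heterozygous for the deletion and not wild type. Cells of 2 embryos were pooled into 1 library per genotype, and the design asks what changes in these cells when both TFAP2 factors are lost from the crest. Wnt1:CRE is also active in the dorsal neural tube and midbrain, so sorted cells include brain neurons that are not neural crest. With 1 library per group there is no replicate error. Brackets hold 95% intervals, which cover counting error and nothing else, and no p-value was computed. Xist was found in the control library and Y-linked transcripts in the mutant library, so effects of sex and of genotype cannot be told apart.

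The regions before the annotated starts are shown because the deleted factors, TFAP2A and TFAP2B, bind the palindrome GCCNNNGGC. RefSeq promoter windows of GRCm38.p6 were found for both genes, with 1 start for Gata3 and 2 for Gata2. Each line below runs 5′ to 3′ on the gene's strand over the 250 bases before the start, and capitals mark GCCNNNGGC, which reads the same on both strands.
Gata3 (chr2:9878601-9878850, minus strand): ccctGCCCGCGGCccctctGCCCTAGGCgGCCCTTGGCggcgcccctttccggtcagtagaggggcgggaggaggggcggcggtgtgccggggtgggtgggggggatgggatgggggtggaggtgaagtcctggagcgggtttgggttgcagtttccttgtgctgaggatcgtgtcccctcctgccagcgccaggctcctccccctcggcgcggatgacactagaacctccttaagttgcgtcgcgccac
Gata2, upstream start (chr6:88193641-88193890, plus strand): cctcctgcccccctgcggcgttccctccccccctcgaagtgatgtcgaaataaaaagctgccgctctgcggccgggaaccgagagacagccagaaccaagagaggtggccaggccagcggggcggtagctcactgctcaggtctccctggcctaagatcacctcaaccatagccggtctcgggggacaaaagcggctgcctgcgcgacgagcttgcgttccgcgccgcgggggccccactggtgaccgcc
Gata2, downstream start (chr6:88198414-88198663, plus strand): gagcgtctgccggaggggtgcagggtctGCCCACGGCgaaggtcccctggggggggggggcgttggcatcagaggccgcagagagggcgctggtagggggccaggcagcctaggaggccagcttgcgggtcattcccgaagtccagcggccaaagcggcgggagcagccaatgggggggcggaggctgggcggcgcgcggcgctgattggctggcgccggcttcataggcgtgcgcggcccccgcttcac
The Gata3 window held 3 matches, whose first bases lay 246, 231 and 221 bases before the start. The upstream Gata2 window held 0 matches and the downstream Gata2 window 1 match, 222 bases before its start. Of all 32851 promoter windows of this length, 13.7% held at least 1 match and 0.289% held 3 or more. The windows are rich in G and C (70%, 67.2% and 74%), the letters of which the motif is made. The letters GATAA, searched on both strands, were in none of the 3 windows and in 22.6% of all windows. A match is a string of letters and was not measured as a binding site here.

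Gata3 (ENSMUSG00000015619) lies on chromosome 2 at 9857078 to 9890034 on the minus strand, and Gata2 (ENSMUSG00000015053) on chromosome 6 at 88193891 to 88207032 on the plus strand (GRCm38). The Gata3 promoter window shown above lies inside the Gata3 span, so the bases before the 5′ end of that span, at 9890034, were not searched for Gata3. Gata2 overlaps no annotated gene. Gata3 overlaps Gm13256 and 4930412O13Rik on the opposite strand and 9230102O04Rik on its own strand, and whether the counting used strand was not stated in the sources used here. In the 3 populations these genes had between 0 and 14 UMIs, except 9230102O04Rik in inhibitory-like neurons with 35 control and 77 mutant UMIs, beside 377 and 1172 of Gata3. The counts come from transcript ends, so they do not tell the 2 Gata2 starts apart.

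The files held 6148 control and 6063 mutant barcodes, of which 5625 and 5587 were kept, with medians of 13478 and 12234 UMIs. The libraries shared 5 kept barcodes. Mesenchyme-like cells fell into 6 clusters and neuron-like cells into 7. Held out of clustering were 30 genes: both members, Tfap2a, Tfap2b, the sex-linked genes and genes the study named as raised or reduced. Among the last were Alx1, Pax3 and Pax7, which also served as frontonasal markers for naming. The frontonasal-like cluster had 6 of its 6 markers above the other mesenchyme, the mandibular-like cluster 5 of 6 and the inhibitory-like cluster 4 of 5, with Tal1, Six3, Sox14 and Gata3 among its leading genes. Doublets, 93 control and 171 mutant barcodes, were rare in these 3 clusters, with between 0 and 6 per library.

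Most Gata2 and Gata3 transcripts of the control library came from the frontonasal-like mesenchyme, and a far larger part of those of the mutant library came from neurons. In the control library 1366 of 1978 Gata2 UMIs (69.1%) and 1598 of 2660 Gata3 UMIs (60.1%) lay in the frontonasal-like cells, which were 21.9% of the cells. In the mutant library the frontonasal-like cells held 650 of 1561 Gata2 UMIs (41.6%) and 1003 of 3018 Gata3 UMIs (33.2%). This cluster was also a smaller part of that library, with 13.75% of its kept cells. Neuron-like cells as a class made up 14.13% of the control library and 22.96% of the mutant library. The UMI shares therefore depend on the mix of cells as well as on the level in each population. The inhibitory-like neurons were 0.853% of control and 2.56% of mutant cells. They held 6.22% of the Gata2 UMIs and 14.2% of the Gata3 UMIs of the control library, and 22.7% and 38.8% of those of the mutant library. The 48 control and 143 mutant cells of this cluster are not compared as numbers, because genes that lead the cluster, among them Sox14 and Pnoc, differed between the libraries.

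**Figure D1:**
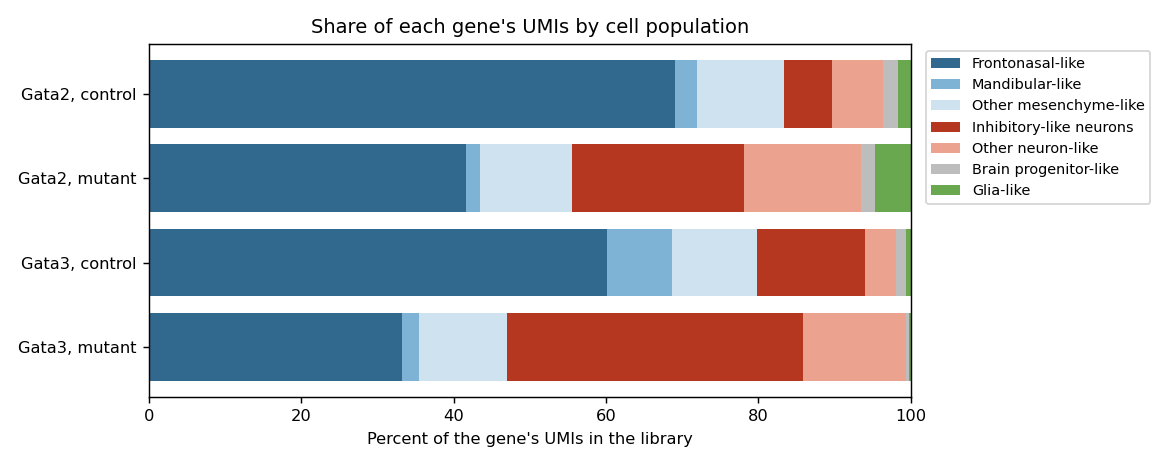
Percent of each gene's UMIs (horizontal axis) that lay in each cell population, 1 bar for each gene and library. The inhibitory-like part of the Gata3 bar is 14.2% in the control and 38.8% in the mutant library, and the frontonasal-like part is 60.1% and 33.2%. Frontonasal-like mesenchyme supplied 21.9% of the kept cells in the control library and 13.75% in the mutant library.

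Levels are given as UMIs per 1000000 UMIs of a population (CPM). In a 3′ library this value does not scale with transcript length. In both libraries Gata2 was highest in the inhibitory-like neurons, with 245 CPM [204, 292] in the control and 257 CPM [231, 285] in the mutant library. Next came cycling neurons (neuron cluster 5, led by Ccnb1 and Prc1) with 98.7 CPM [75.5, 127] and 67.7 CPM [55.6, 81.8], then the frontonasal-like mesenchyme with 67.9 CPM [64.3, 71.6] and 52.6 CPM [48.6, 56.8]. The intervals of these neighbours did not overlap in the control library, and in the mutant library the last 2 overlapped between 55.6 and 56.8 CPM. Among the other mesenchyme clusters, mural-like mesenchyme had 20.1 and 13.5 CPM, mandibular-like 6.42 and 5.15 CPM, maxillary-like 5.03 and 3.07 CPM and the second arch-like mesenchyme 2.36 and 0.516 CPM. The mandibular-like and maxillary-like intervals overlapped in both libraries. A neuron cluster with collagen genes (cluster 6, led by Dnm3os and Col3a1) had 29.8 and 25.7 CPM and a mesenchyme cluster with neural genes (cluster 5, led by Pou3f2 and Otx2) 17.8 and 26.5 CPM. The remaining neuron clusters and the brain progenitor-like cells had between 0.715 and 18.4 CPM.

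Gata3 also peaked in the inhibitory-like neurons, at 750 CPM [677, 830] in the control and 850 CPM [802, 900] in the mutant library. In the control library the frontonasal-like mesenchyme followed with 79.4 CPM [75.6, 83.4]. Mandibular-like mesenchyme had 25.6 CPM [22.4, 29.1], which overlapped the 22.2 CPM [18.5, 26.4] of mural-like mesenchyme. In the mutant library the cycling neurons (87.2 CPM [73.3, 103]) and the frontonasal-like mesenchyme (81.1 CPM [76.2, 86.3]) overlapped, and mandibular-like mesenchyme had 11.7 CPM [9.07, 14.9]. The Dnm3os-led neuron cluster had 44.8 and 34.3 CPM and the Pou3f2-led mesenchyme cluster 21.0 and 53.4 CPM. Lowest in the mutant library were brain progenitor-like cells, with 10 Gata3 UMIs in 1234 cells, although the interval overlapped that of the next cluster. As a measure of stray RNA, Atoh1-led rhombic lip-like neurons (neuron cluster 0), with 9056 and 9224 UMIs per cell in the median, held a Gata2 UMI in 1.40% and 0.730% of cells and a Gata3 UMI in 0.465% and 1.09%. Its 13 control Gata3 UMIs lay in 1 cell.

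**Figure D2:**
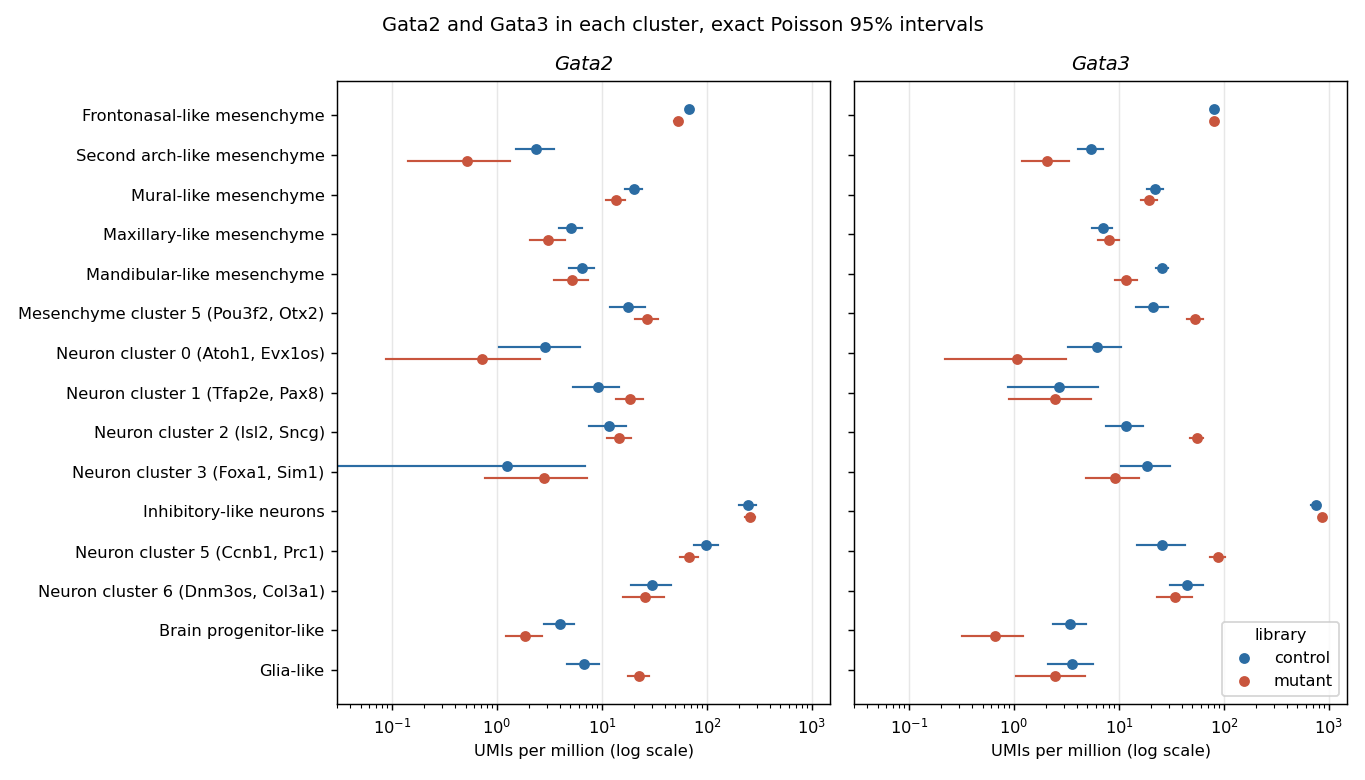
Gata2 and Gata3 in each cluster as UMIs per 1000000 on a log axis, with exact Poisson 95% intervals, control in blue and mutant in red. Both genes are highest in the inhibitory-like neurons (245 and 257 CPM for Gata2, 750 and 850 CPM for Gata3), with the frontonasal-like mesenchyme highest among the named mesenchyme clusters.

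In the frontonasal-like mesenchyme, 462 of 1231 control cells (37.5% [34.8, 40.3]) and 237 of 768 mutant cells (30.9% [27.6, 34.3]) held a Gata2 UMI. Gata3 was found in 470 control cells (38.2% [35.5, 41.0]) and 306 mutant cells (39.8% [36.4, 43.4]). After thinning to 5000 UMIs per cell, which left out 12 control and 9 mutant cells, the shares were 20.6% and 17.9% for Gata2 and 24.5% and 26.3% for Gata3. The log2 ratio of mutant over control was -0.37 [-0.51, -0.23] for Gata2 and 0.03 [-0.08, 0.15] for Gata3. Neither passed 1.5-fold, a size that 4.97% of the 11686 genes with at least 50 UMIs in this cluster reached in either direction. The Gata2 value depended on how the cells were chosen: it was -0.14 with a UMI gate in place of the cluster, and 0.071 [-0.08, 0.22] when the libraries were clustered without integration.

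Alx1, a homeobox gene of the frontonasal crest, was lower in the mutant library, as Gata2 was in this cluster. An Alx1 UMI was in 1065 of 1231 control cells (86.5%) and in 528 of 768 mutant cells (68.8%) of this cluster. Among cells with an Alx1 UMI, Gata2 had 75.7 CPM in the control and 73.6 CPM in the mutant cells, with a log2 ratio of -0.04 [-0.18, 0.10], and Gata3 had 88.7 and 109 CPM, a log2 ratio of 0.29 [0.17, 0.41]. Cells without an Alx1 UMI had little Gata2 in either library, with 11.4 and 5.74 CPM from 28 and 22 UMIs. The Gata2 log2 ratio in these cells was -0.99 [-1.87, -0.13], so Gata2 was lower in the mutant library there too. Gata3 had 12.6 and 20.1 CPM in them, a log2 ratio of 0.67 [0.05, 1.32]. These splits were chosen after the values were seen, and Alx1 itself differed between the libraries (log2 ratio -0.54), so the part that the loss of Alx1 plays in the Gata2 value was not tested. Tfap2a had 37.7 and 19.8 CPM and Tfap2b 114 and 88.9 CPM in this cluster, counts that do not tell intact from recombined transcripts.

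The members were not spread alike within the frontonasal-like mesenchyme. The higher resolution gave 2 frontonasal-like clusters, led by Pmaip1 and Rnf128 and by Cxcl13, Tfap2b and Tfap2a, which together held 1127 control and 670 mutant cells, fewer than the 1231 and 768 of the main cluster. Gata3 had 124 CPM in the 754 control cells of the Pmaip1-led cluster and 6.54 CPM in the 373 control cells of the Cxcl13-led cluster. Gata2 was in both, with 85.1 and 43.4 CPM. In the mutant library Gata3 had 130 CPM in 472 Pmaip1-led cells and 55 UMIs in 198 Cxcl13-led cells, against 42 UMIs in the 373 control cells. Gata2 had 70.7 and 28.4 CPM in the mutant Pmaip1-led and Cxcl13-led cells, log2 ratios of -0.27 [-0.42, -0.11] and -0.61 [-0.95, -0.28]. Tfap2a ran the other way, with 14.7 CPM in Pmaip1-led and 85.6 CPM in Cxcl13-led control cells. In the whole frontonasal-like cluster a Tfap2a UMI was in 16.0% of control cells with Gata3 and in 39.2% of those without it, against 28.6% and 31.3% for Gata2. The cells with Gata3 had fewer UMIs (a median of 14172 against 16444). Cells with Gata3 held Gata2 more often than cells without it, 59.6% against 23.9% in the control and 47.4% against 19.9% in the mutant library.

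In the mandibular-like mesenchyme Gata3 was lower in the mutant library and Gata2 was scarce in both. Gata3 had 227 UMIs in 615 control cells and 66 UMIs in 345 mutant cells, and was found in 20.5% [17.4, 23.9] and 11.6% [8.41, 15.4] of them. The level was 25.6 and 11.7 CPM, a log2 ratio of -1.13 [-1.54, -0.72]. Gata2 had 57 and 29 UMIs, 6.42 and 5.15 CPM, a log2 ratio of -0.32 [-1.02, 0.35], an interval that includes 0. Thus 1 of the 2 members passed 1.5-fold, beside 4.23% of 10507 genes in either direction and 2.73% in the lower direction. Thinned to 5000 UMIs, 10.3% of control and 4.08% of mutant cells held a Gata3 UMI.

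Cells with Hand1, a transcription factor gene of the distal midline of the jaw, held 134 of the 227 control Gata3 UMIs of this cluster and 27 of the 66 mutant ones. In the control library 54.0% of cells with Gata3 held a Hand1 UMI, against 12.7% of cells without Gata3. In the mutant library the shares were 40.0% and 10.2%. Cells with a Hand1 UMI were 130 of 615 in the control and 47 of 345 in the mutant library. In these cells Gata3 had 72.2 and 33.4 CPM, a log2 ratio of -1.11 [-1.77, -0.51]. In cells without a Hand1 UMI it had 13.3 and 8.09 CPM, a log2 ratio of -0.71 [-1.29, -0.16]. Gata2 had 11 control and 13 mutant UMIs in cells with Hand1, a log2 ratio of 1.44 [0.17, 2.74], and 46 and 16 UMIs in cells without it, a log2 ratio of -0.98 [-1.90, -0.13]. Gata3 was lower in the mutant library on both sides of this split, which was chosen after the values were seen and uses a gene that itself differed (Hand1, log2 ratio -1.28 [-1.55, -1.02]).

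Alx1 was also more frequent in cells with Gata3: it was in 58.7% of control cells with Gata3 and in 18.8% of those without it. A gate that took mesenchyme cells with at least 2 Hand2 UMIs and no Alx1 UMI held 39 of the 227 control Gata3 UMIs of this cluster. Over all mesenchyme-like cells that passed this gate the ratio was -0.015 [-0.77, 0.72] from 44 control and 26 mutant UMIs. Inside the mandibular-like cluster these gated cells had 9.83 and 4.08 CPM of Gata3, a log2 ratio of -1.27 [-2.50, -0.20]. Gated cells of other clusters had 5 Gata3 UMIs in 104 control cells and 17 in 59 mutant cells. With at least 2 Hand2 UMIs and any Alx1, the cluster gave 27.1 and 13.6 CPM, a log2 ratio of -0.99 [-1.47, -0.54].

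Of the 9 distal arch factors, all had at least 50 UMIs in the mandibular-like mesenchyme, and 3 were past 1.5-fold, all lower in the mutant library, where 2.73% of all genes counted were past 1.5-fold in this direction. These were Hand1 (66.5 and 27.4 CPM), Dlx3 (5.07 and 0.888 CPM) and Dlx6 (49.1 and 32.3 CPM). Hand2, which sets lower jaw identity, had 213 and 182 CPM, and Dlx5 102 and 82.6 CPM. Bmp4, which encodes a BMP ligand, had 71.2 and 53.6 CPM, Ednra, the endothelin receptor, 45.9 and 55.1 CPM, and Msx1 402 and 426 CPM. The median log2 ratio of the 9 was -0.31, against -0.02 over all genes counted. In the frontonasal-like mesenchyme 7 of the 9 had enough UMIs and none was past 1.5-fold, beside 4.97% of all genes counted there. Their median was -0.22, against 0.02 over all genes.

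In the inhibitory-like neurons both members were found in most cells of both libraries at similar levels per cell. Gata2 had 123 UMIs in 48 control cells and 354 UMIs in 143 mutant cells, and was found in 87.5% [74.7, 95.3] and 84.6% [77.6, 90.1] of them. Gata3 had 377 and 1172 UMIs, in 81.3% [67.4, 91.0] and 88.1% [81.7, 92.9] of cells. The median cell held 2 Gata2 UMIs and 7 Gata3 UMIs in each library. The log2 ratios were 0.07 [-0.23, 0.38] for Gata2 and 0.18 [0.01, 0.35] for Gata3. Neither member passed 1.5-fold, a size that 9.38% of 5554 genes reached here. The 10 cells with most Gata3 UMIs in each library held 43.8% of the control and 17.5% of the mutant UMIs. Without them the Gata3 ratio was 0.49. As 10 cells are a larger part of the 48 control than of the 143 mutant cells, this setting does not treat the libraries alike.

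Of the position genes, Otx2 was in most of these neurons and En1 and En2 in a smaller part. Hox genes of the hindbrain were hardly detected. Otx2, of the forebrain and midbrain, had 301 and 300.2 CPM, and En1 and En2, of the midbrain and its border with the hindbrain, had between 43.8 and 63.8 CPM. The 7 Hox genes of the hindbrain list summed to 3 control and 14 mutant UMIs. An Otx2 UMI was in 33 of 48 control and 91 of 143 mutant cells. En1 was in 4 control and 22 mutant cells, and En2 in 15 and 47. Gata3 was not lower in cells without an Otx2 UMI, with 948 and 1064 CPM against 664 and 731 CPM in cells with one. Of the 3 midbrain genes none was past 1.5-fold, beside 9.38% of all genes counted in this cluster. The 8 cranial motor and visceral neuron genes summed to 2 control and 40 mutant UMIs, of which 22 were Isl1.

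GABA genes lay mainly in the Gata3-positive cells of this cluster. In the control library Gad2, which encodes a GABA-synthesizing enzyme, was in 36 of 39 cells with Gata3 and in 0 of 9 cells without it. In the mutant library it was in 111 of 126 cells with Gata3 (88.1%) and in 17.6% of the 17 cells without it. The vesicular GABA transporter gene Slc32a1 was in 79.5% and 79.4% of cells with Gata3 and in 11.1% and 17.6% of the others. Helt, a repressor gene of midbrain GABAergic precursors, ran the other way, in 2.56% and 5.56% of cells with Gata3 and 66.7% and 52.9% of cells without it. Gad2 was in 73.8% and 81.0% of cells with Gata2 and in 83.3% and 72.7% of the 6 control and 22 mutant cells without it. Gata2 was in 9 of 9 control cells without Gata3 and in 76.5% of such mutant cells, and Tal1 was in 55.6% and 58.8% of them. Cells without Gata3 had fewer UMIs (medians of 7590 and 8037 against 10263 and 9463).

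A further inhibitory-like cluster at the higher resolution, of 22 control and 39 mutant cells, had no Gata2 and no Gata3 UMI. It was led by Pax8, Otp and Pax2, and held Gad2 (254 and 328 CPM) and Slc32a1 (171 and 192 CPM), beside 426 and 421 CPM of Gad2 and 155 and 186 CPM of Slc32a1 in the Gata-positive cluster. A count of 0 allows a UMI in up to 13.6% of control and 7.69% of mutant cells, which limits cells with a captured UMI and not cells that express the gene, and a level of up to 13.1 and 7.99 CPM. Tal1, Tal2 and Sox14 were also at 0 there, and Otx2 had 4 control and 0 mutant UMIs.

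Outside the inhibitory-like cluster the members parted in cells with precursor genes. A neuron cluster led by Neurog1, Gsx1 and Dbx1, had Helt at 103 and 67.3 CPM, Tal2 at 130 and 208 CPM and Gata2 at 11.3 and 29.3 CPM. Gata3 had 0 UMIs in its 93 control cells and 1 UMI in its 129 mutant cells. In the cycling neurons Gata2 was in 26.2% of 61 control and 30.4% of 115 mutant cells, and Gata3 in 7 control and 25 mutant cells. Their Gata3 level was 25.9 CPM in the control and 87.2 CPM in the mutant cells, with a log2 ratio of 1.75 [1.00, 2.60], while Gata2 had a log2 ratio of -0.54 [-1.01, -0.07]. Six3, Gad2 and Tal1 moved with Gata3 in this cluster: Six3 had 0 control and 63 mutant UMIs, Gad2 1 and 52, and Tal1 10 and 71. Sox14 did not, with 39 UMIs in the 61 control and 67 in the 115 mutant cells. These pairs are raw counts, not scaled to the larger number of mutant cells. The part of the mix of cells in the Gata3 ratio was not tested.

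A small set of neurons with Gata2 and Gata3 but without GABA genes was found in the mutant library. It was chosen after the values were seen, by at least 2 UMIs of Fev, a transcription factor gene of serotonergic neurons. There were 9 such cells of 1283 mutant neuron-like cells and 0 of 795 control cells, a count of 0 that allows a share of up to 0.377%. Gata3 was in 9 of the 9 cells at 1067 CPM and Gata2 in 8 of the 9 at 313 CPM, from 109 and 32 UMIs, beside 850 and 257 CPM in the mutant inhibitory-like neurons. Ddc, which encodes the enzyme that makes serotonin from its precursor, was in 9 of the 9 cells, the glutamate transporter gene Slc17a8 in 8, and the serotonin synthesis gene Tph2 in 4. Tal1, Sox14, Gad1, Gad2, Slc32a1 and Otx2 had 0 UMIs in these cells, and En1 was in 6. Of the 9 cells, 8 lay in neuron cluster 2 (led by Isl2 and Sncg), where Gata3 had 26 UMIs in 161 control cells and 221 UMIs in 303 mutant cells, with a log2 ratio of 2.24 [1.66, 2.89]. These 8 cells held 99 of the 221 UMIs, and without them Gata3 had 122 UMIs in 295 mutant cells and a log2 ratio of 1.42 [0.80, 2.09]. In the control library 1 neuron-like cell held 1 Fev UMI, with 3 Gata3 UMIs. The inhibitory-like neurons had Ddc as well (155 and 94.3 CPM) but no Fev and no Tph2 UMI in either library.

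Among glia-like cells Gata2 was higher in the mutant library. It had 34 UMIs in 261 control cells and 74 UMIs in 202 mutant cells, in 7.28% [4.44, 11.1] and 18.8% [13.7, 24.9] of cells. The level was 6.69 and 22.4 CPM, a log2 ratio of 1.75 [1.14, 2.38], beside 8.66% of 9842 genes past 1.5-fold in this direction. Thinned to 5000 UMIs the shares were 3.09% and 11.4%. Gata3 had 18 and 8 UMIs, a log2 ratio of -0.55 [-1.96, 0.73]. The 7 neuron markers summed to 2316 CPM in the control and 405 CPM in the mutant class, and their part in the Gata2 ratio was not tested. In cells with a UMI of Sox10, a factor of crest-derived glia, Gata2 had 9.74 CPM in 174 control cells and 23.5 CPM in 184 mutant cells, a log2 ratio of 1.27 [0.65, 1.91]. This split was chosen after the values were seen. The 10 glia-like cells with most Gata2 UMIs in each library held 73.5% of the control and 45.95% of the mutant UMIs. The glia-like ratio was not recomputed under alternative processing.

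Several of the listed GATA cofactors differed in level between the facial mesenchyme and the neurons. Tal1 had 0 UMIs in the frontonasal-like mesenchyme of either library, which allows up to 0.149 CPM in the control and 0.243 CPM in the mutant library. In the inhibitory-like neurons it had 305 and 306 CPM. Tal2 had 569 and 468 CPM in these neurons and 0.398 and 0.647 CPM in the frontonasal-like mesenchyme. Zfpm2, a FOG cofactor, had 101 and 109 CPM in the neurons and 0.696 and 1.86 CPM in the frontonasal-like mesenchyme. Its relative Zfpm1 was in all 3 populations, with 11.8 and 12.3 CPM in frontonasal-like, 6.31 and 4.09 CPM in mandibular-like mesenchyme and 63.7 and 86.3 CPM in the neurons. Of the LIM-domain bridge genes, Lmo1 had 112 and 110 CPM in the neurons against 1.74 and 1.62 CPM in the frontonasal-like mesenchyme, while Lmo4 had 110 and 118 CPM in frontonasal-like and 346 and 353 CPM in mandibular-like mesenchyme and 71.7 and 58.7 CPM in the neurons. Ldb1, which joins LMO proteins into complexes, was between 70.9 and 102 CPM throughout.

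**Figure D3:**
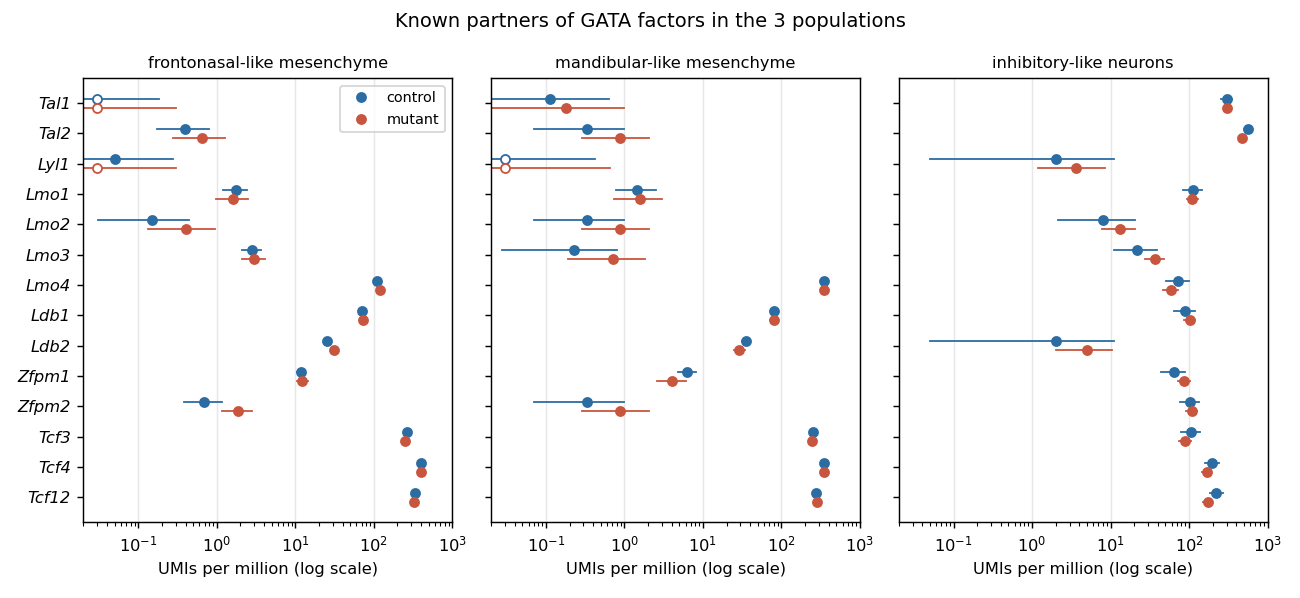
Level of the 14 listed GATA cofactors in each of the 3 populations as UMIs per 1000000 on a log axis, with exact Poisson 95% intervals. Control is blue and mutant red, and open circles at the left edge mark 0 UMIs. Tal1 is at 0 in frontonasal-like mesenchyme and at 305 and 306 CPM in inhibitory-like neurons.

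As among all genes counted, few of the cofactors were past 1.5-fold between the libraries. Of the 14, 9 had enough UMIs in the frontonasal-like mesenchyme and none was past 1.5-fold, beside 4.97% of all genes counted. Their median log2 ratio was 0.04, against 0.02 over all genes. In mandibular-like mesenchyme 7 were counted and 1 was past 1.5-fold, beside 4.23% of all genes counted. This was Zfpm1, lower in the mutant library with a log2 ratio of -0.63 [-1.40, 0.10]. In inhibitory-like neurons 11 were counted and 1 was past 1.5-fold, beside 9.38% of all genes counted. This was Lmo3, higher in the mutant library, with 21.9 and 37.0 CPM and a log2 ratio of 0.76 [-0.20, 1.85]. Both intervals include 0.

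Of the other members of the GATA family, Trps1, which encodes an atypical GATA repressor, was broadly present. It had 88.1 and 88.2 CPM in frontonasal-like and 88.7 and 93.3 CPM in mandibular-like mesenchyme, and 5 control and 7 mutant UMIs in the inhibitory-like neurons. Gata4 had 0 UMIs in all kept cells of both libraries. Gata1, of the blood lineage, had 14 UMIs in 4 control cells and 0 in the mutant cells, Gata5 had 4 and 5 UMIs, and Gata6 11 and 20. Of these 5 genes, Trps1 alone reached 50 UMIs in frontonasal-like or mandibular-like mesenchyme, and it was not past 1.5-fold in either.

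Of the 13 inhibitory lineage factors, 10 had at least 50 UMIs in the inhibitory-like neurons, where 1 was lower and 1 higher past 1.5-fold in the mutant library, beside 9.38% of all genes counted in either direction. Helt had 129 and 52.2 CPM, a log2 ratio of -1.31 [-1.81, -0.80]. Sox14, a factor gene of maturing GABAergic neurons, had 187 and 286 CPM, a log2 ratio of 0.61 [0.29, 0.95]. Lhx1 had 963 and 1105 CPM, Lhx5 533 and 534 CPM, and Nkx2-2 112 and 117 CPM. The median of the 10 was 0.04, against -0.0049 over all genes. In the frontonasal-like mesenchyme Meis2 was past 1.5-fold and higher in the mutant library, with 89.6 and 136 CPM. In mandibular-like mesenchyme Meis2 was the 1 gene counted and had 408 and 382 CPM. Of the position and motor lists, the genes counted there numbered 1, 0 and 1 in frontonasal-like mesenchyme for the midbrain, hindbrain and motor lists, and 0, 2 and 1 in mandibular-like mesenchyme. Apart from the members, no gene of the GATA family, distal arch, hindbrain or motor lists reached 50 UMIs in the inhibitory-like neurons. Isl1 in mandibular-like mesenchyme was past 1.5-fold, with 11.2 and 3.73 CPM and a log2 ratio of -1.58 [-2.33, -0.89].

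Markers of other cell types that use GATA2 or GATA3, namely endothelium, surface epithelium and blood, were low in all 3 populations. In the frontonasal-like mesenchyme the 8 endothelial markers summed to 16.9 and 20.9 CPM, with 7 and 5 of them detected and Cdh5 at 0 in both libraries. The sum differed little between cells with and without Gata2 (16.6 and 17.2 CPM in the control, 20.8 and 20.9 CPM in the mutant library). The 8 epithelial markers summed to 9.19 and 7.28 CPM and the 9 blood markers to 6.66 and 1.54 CPM, with Cdh1, Krt5 and Ptprc at 0. The epithelial sum of this cluster was 13.6 CPM in control cells with Gata3 and 6.78 CPM in those without. In the mutant library these sums were 7.10 and 7.38 CPM. In mandibular-like mesenchyme the sums were 19.8 and 19.2, 11.3 and 7.82, and 9.35 and 0.711 CPM in that order. Epithelial markers were at 18.1 CPM in control cells with Gata3 and 9.37 CPM in those without, and at 3.86 and 8.45 CPM in the mutant library. In inhibitory-like neurons the endothelial sum was 43.8 and 21.0 CPM, from 22 and 29 UMIs, with Cdh5, Tek, Tie1 and Emcn at 0, and it was lower in cells with Gata3 (34.7 and 16.1 CPM) than in cells without it (100.4 and 65.0 CPM). Without cells that held at least 2 UMIs of any of these lists, the Gata3 ratio in mandibular-like mesenchyme was -1.12 and the Gata2 ratio in frontonasal-like mesenchyme -0.31.

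Over 27 profiles, each the cells of a cluster or class in a library with at least 50 cells, the gene most like Gata2 was Gata3 and the gene most like Gata3 was Gata2 (Pearson r = 0.77 of log2(CPM + 1), among 12822 genes). Next for Gata2 were G0s2 (0.70), Nrtn (0.64), 2700062C07Rik (0.62), Tal1 (0.60), Slc30a3 (0.58), Mgarp (0.57) and Slc10a7 (0.56). Next for Gata3 were Bex3 (0.68), Nrtn (0.68), Rita1 (0.66), Unc5b (0.66), Tmem189 (0.65), Sox14 (0.64) and Arid4a (0.64). Profiles of both libraries share clusters and depth, and the 48 control inhibitory-like cells were too few to enter, so these values describe the profiles and carry no p-value. Tal1 and Sox14 had 0 UMIs in control frontonasal-like mesenchyme, where both members were abundant.

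Over whole classes, both genes were lower in the mesenchyme and higher in the neurons of the mutant library. In all mesenchyme-like cells Gata2 had 28.1 and 19.6 CPM, a log2 ratio of -0.52 [-0.64, -0.40], and Gata3 36.2 and 32.0 CPM, a log2 ratio of -0.18 [-0.27, -0.08]. In all neuron-like cells Gata2 had 28.8 and 40.9 CPM, a log2 ratio of 0.51 [0.29, 0.72], and Gata3 54.5 and 109 CPM, a log2 ratio of 1.00 [0.85, 1.15]. When the mutant levels of the clusters were weighted by the control shares of UMIs, the neuron ratio was 0.03 for Gata2 and 0.41 for Gata3, and the mesenchyme ratio -0.38 and -0.05. Both neuron ratios were thus closer to 0 at fixed cluster shares. Outside the inhibitory-like cluster Gata3 had 12.9 CPM in 747 control and 31.3 CPM in 1140 mutant neurons, a log2 ratio of 1.28 [0.97, 1.60]. Of the 410 mutant UMIs there, 221 lay in neuron cluster 2 and 139 in the cycling neurons. The remaining neuron clusters did not share the rise. Their Gata3 log2 ratios were -2.52 [-4.97, -0.65] in cluster 0, -0.13 [-2.11, 1.92] in cluster 1, -1.03 [-2.22, 0.14] in cluster 3 and -0.38 [-1.16, 0.39] in cluster 6.

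**Figure D4:**
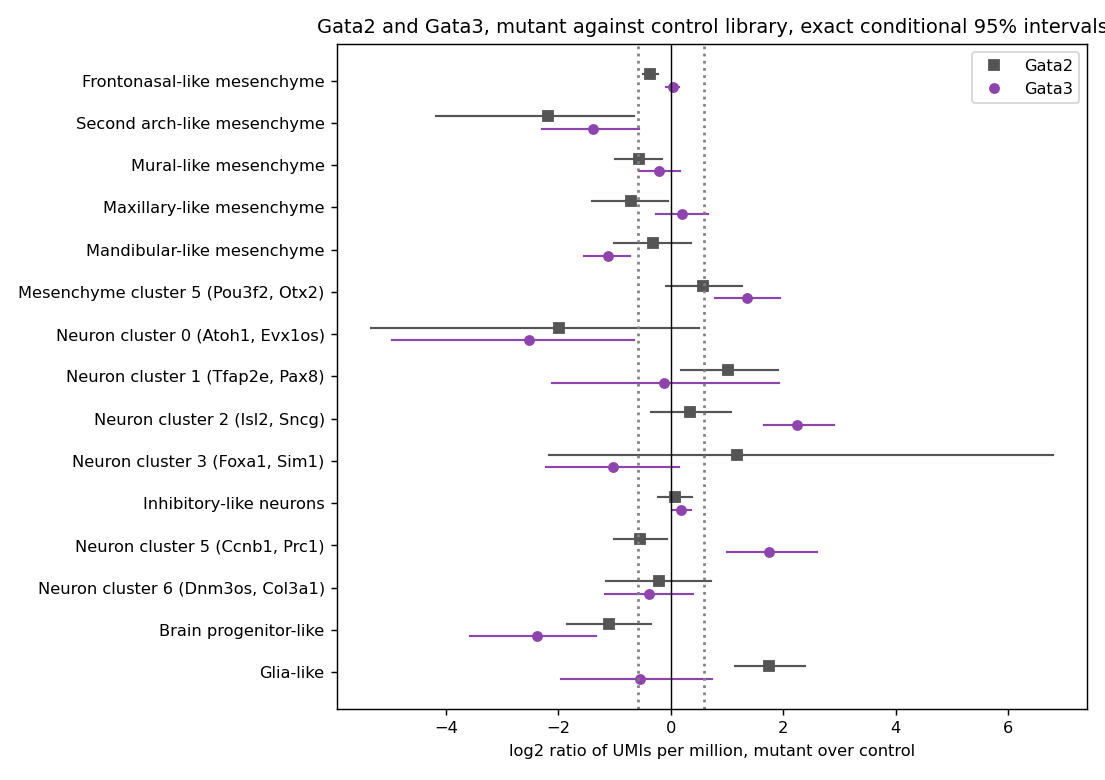
Log2 ratio of mutant over control for Gata2 (squares) and Gata3 (circles) in each cluster and class, with exact 95% intervals for counting error and dotted lines at 1.5-fold. Gata3 is at -1.13 in mandibular-like mesenchyme, and both genes lie near 0 in inhibitory-like neurons (0.07 and 0.18).

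**Figure D5:**
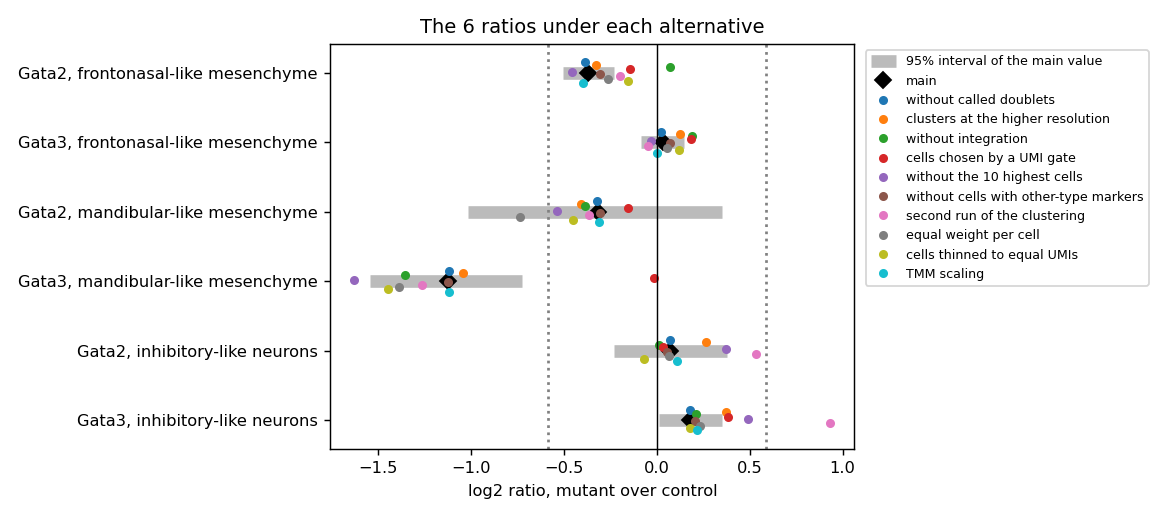
The 6 log2 ratios of mutant over control under each alternative processing, with the main value as a diamond and its 95% interval in grey. Gata3 in mandibular-like mesenchyme lies between -1.63 and -1.04 in all alternatives except the UMI gate, at -0.015.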

How the data were processed

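The authors deposited raw UMI counts as 1 matrix of genes by barcodes for each library, not normalized. Per the file headers and the labels they were made with Cell Ranger 6.0.0 from 10x 3′ libraries, and the genome was mm10. The members and the gene lists were chosen with earlier results of these data known. Following the study, barcodes were kept with 200 to 7500 genes and at most 10% of UMIs from mitochondrial genes. The libraries were integrated and clustered with Seurat 5.3.0 (2000 variable genes, 30 dimensions). Mesenchyme-like and neuron-like cells were clustered again (20 dimensions, resolutions 0.2 and 0.1, higher resolutions 0.4 and 0.2). Clusters were named "-like" from marker lists. Neuron clusters whose leading genes went against their name are called by number and leading genes.

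UMIs were summed per library and population and expressed as counts per 1000000 (CPM), with exact Poisson, conditional binomial and Clopper-Pearson intervals at 95%. A count of 0 was set against a floor of 3 counts. Genes with at least 50 UMIs over both libraries were counted as past 1.5-fold or not. The named genes are the members, 7 lists (GATA family, GATA cofactors, inhibitory lineage, distal arch, midbrain, hindbrain, cranial motor and visceral neuron genes) and the 8 genes most like each member. In an alternative, cells were chosen by a gate in place of clusters: at least 2 UMIs over Alx1, Alx4, Pax3 and Pax7 and none of Hand2 (frontonasal), at least 2 of Hand2 and none of Alx1 (mandibular), or at least 2 over Gad1, Gad2 and Slc32a1 (inhibitory). Doublets were called with Scrublet in scanpy 1.11.5, kept, and removed in an alternative. The ratio code was tested on simulated data. No test was run, since each group is 1 library. Some genes of these lists are not reported here.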

Additional observations from a re-analysis of the deposited data

Results flagged for a closer look

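Both members had log2 ratios of mutant over control of opposite sign in different classes of cells, with counting intervals clear of 0. The Gata2 ratio was 0.51 in neurons, 1.75 in glia, -0.52 in mesenchyme and -1.10 in brain progenitors. The Gata3 ratio was 1.00 in neurons, -0.18 in mesenchyme and -2.38 in brain progenitors. The brain progenitor-like values rest on 38 control and 28 mutant UMIs of Gata2 and 33 and 10 of Gata3, and the 10 cells with most UMIs held 92.1% of the control Gata2 and 97.0% of the control Gata3 UMIs there. The differences between classes were not tested, since each group is 1 library.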

How the results depend on the processing

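The 6 log2 ratios of the members were recomputed under 10 alternatives, of which the repeat of the clustering with another linear-algebra kernel was chosen after seeing the data. No alternative turned the direction of the ratio past 1.5-fold (Gata3 in mandibular-like mesenchyme), and it ran from -1.63 without the 10 cells with most Gata3 UMIs to -0.015 with the UMI gate, which brought it under 1.5-fold. Gata2 in mandibular-like mesenchyme stayed inside its counting interval, between -0.74 and -0.16. Gata2 in frontonasal-like mesenchyme left its interval without integration (0.071, a change of sign), with the gate (-0.14), in the repeat clustering (-0.20) and after thinning (-0.16), and Gata3 there without integration (0.19) and with the gate (0.19). In inhibitory-like neurons Gata3 left its interval at the higher resolution (0.37), with the gate (0.38), without the 10 highest cells (0.49) and in the repeat clustering (0.93), and Gata2 in the repeat clustering (0.53). In that repeat the inhibitory-like cluster held 436 control and 767 mutant cells, so other neurons were merged into it. Leaving out 10 cells per library took a larger part of the 48 control than of the 143 mutant inhibitory-like cells. The causes of the other shifts were not tested.

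The percent of genes past 1.5-fold was 8.71, 8.02 and 17.9 in frontonasal-like, mandibular-like and inhibitory-like cells with a minimum of 20 UMIs, and 2.12, 1.39 and 1.26 with 200 UMIs. TMM scaling (edgeR 4.0.16) shifted log2 ratios by between -0.03 and 0.04. No paired analysis was possible because each group has 1 library, and leaving out a library would leave no comparison.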
